A study of Mus musculus with 12 samples.

Results

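The levels of 10 immediate early genes were followed in the lumbar spinal cord of mice. They are Fos, Fosb, Junb, Egr1, Arc, Npas4, Nr4a1, Ier2, Dusp1 and Btg2, taken as a named list and matched by symbol to 10 Ensembl genes among the 49548 genes counted in each library. Immediate early genes are transcribed within minutes of a stimulus without the need for new proteins. Calcium entry, cAMP and MAP kinase signalling act on factors such as CREB and the serum response factor that already sit at their promoters, and their products then switch on later genes. In the nervous system they are the standard readout of recent neuronal activity, and several also respond to growth factors, stress and the handling of tissue.

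The RNA came from 8 MFN2 and 4 WT mice, all untreated and 30 days old, with 1 library per mouse. MFN2 mice are MitoCharc1 animals, labelled CMT2A, with a B6;D2 background and the transgene Tg(Eno2-MFN2*R94Q)L51Ugfm, a model of Charcot-Marie-Tooth disease type 2A. They carry human MFN2 with the R94Q change behind the Eno2 promoter, which drives expression in neurons, and they keep their own Mfn2 gene. WT mice are labelled C57BL/6, and the study's methods describe WT animals as littermates of the MFN2 mice. The human transgene was not analysed here.

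Total counts per library ran from 19359454 to 26738930 in MFN2 mice and from 19453238 to 23564568 in WT mice. The libraries are named here by their numbers. WT libraries are 44 to 47, and MFN2 libraries are 41 to 43 and 72 to 76. All 5 libraries of the second run of numbers are MFN2, so that run and genotype cannot be told apart in them. The labels give no sex, extraction or sequencing date. Ddx3y, a Y-linked gene, was read at 89.4 CPM (counts scaled to library size) in library 41, 66.4 in library 43 and 86.7 in library 44, and was at 0 in the other libraries.

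MFN2 library 43 stood apart from the other 11. A list of 15 forebrain genes summed to 5012 CPM in it against 265.6 to 361.0 CPM in the others, and 14 of the 15 were highest there. Camk2a, a kinase abundant in forebrain neurons, was at 1920 CPM against 69.5 to 151.7 CPM elsewhere, and Nrgn at 550.6 CPM against 11.7 to 25.4 CPM. The 8 caudal Hox genes, which mark the lower cord, summed to 42.8 CPM against 235.8 to 301.0 CPM. Motor neuron markers summed to 35.5 CPM against 153.6 to 370.1 CPM, and all 6 were lowest in library 43. The defining genes of the labelled tissue were thus present in 11 libraries and low in 1. Comparisons between groups that hold library 43 are given with and without it.

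Per length of transcript, Arc was the most abundant of the 10 in WT cord. Arc, which binds the postsynaptic cytoskeleton and takes AMPA receptors off the membrane, stood at 12.1 ± 1.32 RPKM (SD, n = 4), above 78.3% of the 15902 tested genes with a length. Fos followed at 4.22 ± 0.346 RPKM (51.4%) and Egr1 at 3.40 ± 0.429 RPKM. Junb (2.87 RPKM), Ier2 (2.56 RPKM), Btg2 (2.37 RPKM) and Dusp1 (2.30 RPKM) came next, then Nr4a1 at 1.20 RPKM. Npas4 at 0.239 RPKM and Fosb at 0.206 RPKM were above only 2.80% and 2.12% of the genes. Ranges of neighbours in this order overlapped, except between Arc and Fos, Dusp1 and Nr4a1, and Nr4a1 and Npas4. RPKM was computed here from GENCODE exon lengths. The methods name both a whole-transcript kit and 3′ sequencing, and if reads sat at transcript ends this order would favour short genes.

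The lowest genes rested on few reads. Outside library 43, Npas4 had 13 to 61 counts per library and Fosb had 6 to 53, whereas Arc had 598 to 974 and Egr1 had 257 to 566. On GRCm38, exons of Junb (chromosome 8, 84974484 to 84978718) share 173 bases with Prdx2 on the opposite strand, and Dusp1 (chromosome 17, 26505590 to 26562128) shares 11 with Ergic1. How strand was counted is not stated, so reads of these pairs may not be told apart. The library sums of the 10 genes ran from 82.3 to 98.5 CPM in the 11 libraries and reached 342.1 CPM in library 43.

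**Figure D1:**
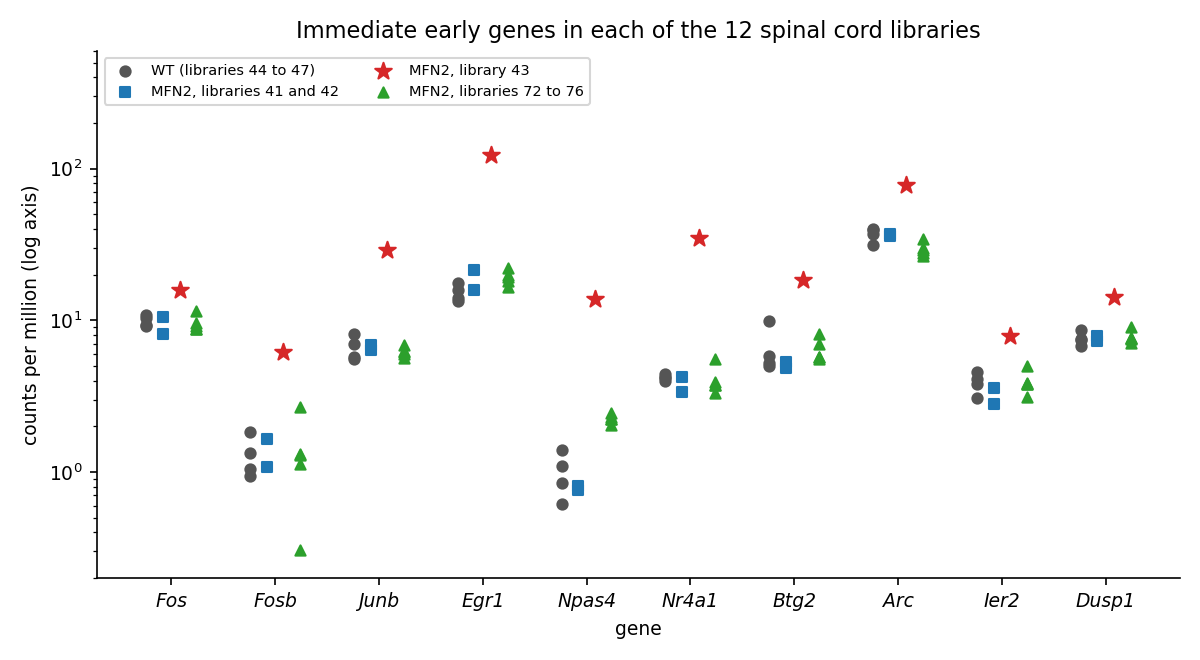
CPM (log axis) of the 10 genes in each library, with WT as circles, MFN2 libraries 41 and 42 as squares, MFN2 library 43 as a star and MFN2 libraries 72 to 76 as triangles. The star is the highest point of every gene, and only for Npas4 do the triangles lie above all circles and squares.

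Every one of the 10 genes was highest in library 43, as were 25.9% of the 15942 tested genes. The differences were largest in Npas4, Nr4a1 and Egr1. Npas4, a transcription factor that neurons make upon calcium entry, was at 13.8 CPM in library 43 against a median of 1.40 CPM in the other 11, 9.91 times higher. Nr4a1, an orphan nuclear receptor, was at 35.0 CPM against 4.003 CPM (8.73 times), and Egr1, a zinc finger transcription factor, at 123 CPM against 17.6 CPM (6.99 times). The other 7 genes stood less far above the rest. The AP-1 subunits Fosb and Junb were 4.81 and 4.64 times the median of the others, while Fos, whose protein pairs with those of the Jun family, was 1.70 times. Btg2, an antiproliferative cofactor, was 3.25 times, Arc 2.28 times, Ier2 2.06 times and Dusp1, a phosphatase that turns off MAP kinases, 1.87 times. The median of the 10 was 3.94 times, against 0.982 times over all tested genes. A single library has no replicate, so these ratios carry no test.

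Other immediate early genes were divided in the same library. The 49 on a further list summed to 1303 CPM in library 43 against 626.2 to 724.7 CPM elsewhere, with 25 of the 49 highest there and 7 lowest. For this and the following lists, the share of all tested genes highest in library 43 was 25.9%. Homer1, a postsynaptic scaffold, was at 216.7 CPM against at most 47.8 CPM, and Errfi1, an inhibitor of EGF receptor signalling, was at 27.3 CPM against 43.1 to 58.3 CPM. Egr3 was at 39.8 CPM against at most 2.86 CPM, Egr4 at 18.8 CPM against at most 0.534 CPM, and Nr4a3 at 48.0 CPM against at most 10.1 CPM. These genes were named after their values were seen. Jund, the most abundant of the list, was at 138.8 CPM, within the 90.9 to 145.4 CPM of the others. Of 29 kinases, phosphatases and transcription factors that act upstream, 20 were highest and 4 lowest in library 43 (summed 4149 CPM against 2116 to 2384 CPM), and of 15 late-response genes 9 were highest and 1 lowest (1394 CPM against 932 to 1241 CPM). The 13 heat-shock genes summed to 5724 CPM against 6248 to 7202 CPM, with 6 lowest and 1 highest in library 43, and the sum rests mostly on Hsp90ab1, Hspa8 and Hsp90aa1. The part of the forebrain and cord genes in the level of the 10 genes in library 43 was not tested.

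**Figure D2:**
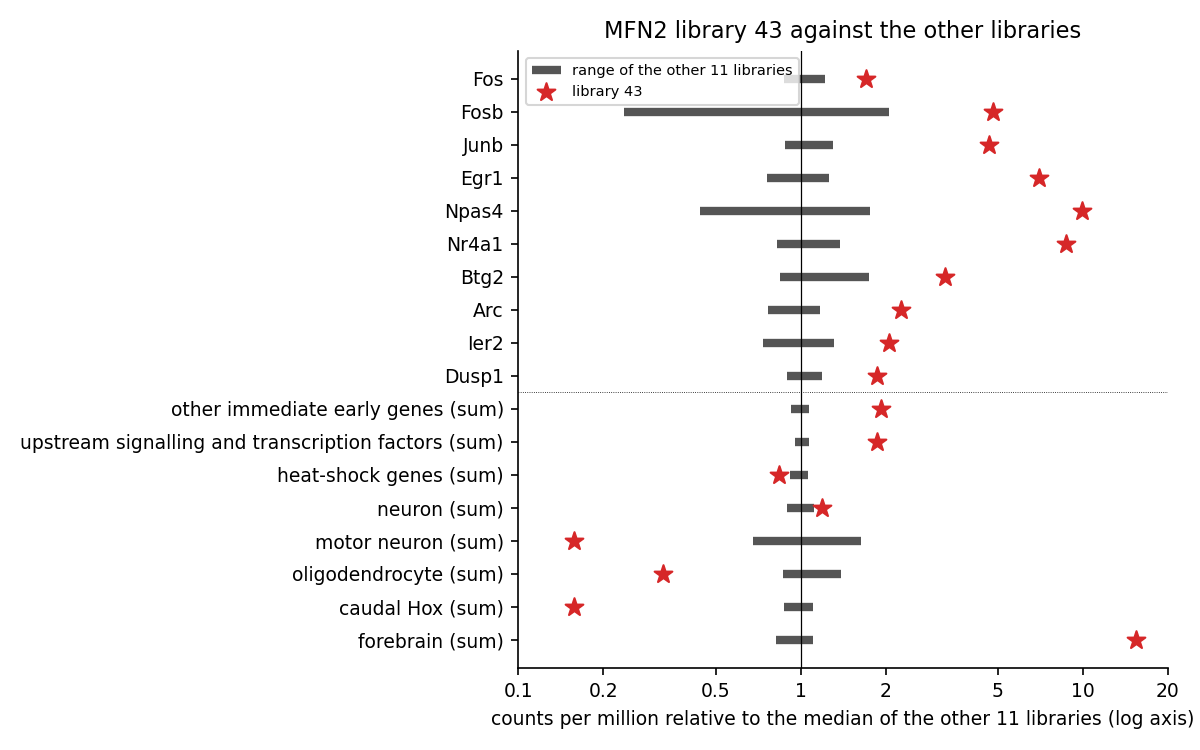
Level in library 43 (star) relative to the median of the other 11 libraries, whose range is the grey bar, on a log axis, for the 10 genes and for summed gene lists below the dotted line. All 10 genes lie to the right of the bars with the forebrain list, while motor neuron, oligodendrocyte and caudal Hox lists lie to the left.

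The promoters of these genes are known for cAMP response elements, the sites at which CREB binds. RefSeq windows from 250 bases before to 50 after the start (GRCm38.p6) were at hand for Fos, Fosb, Junb, Npas4, Nr4a1, Dusp1 and Btg2. Arc, Egr1 and Ier2 had no entry. The core TGACG, read on both strands, was found in 7 of the 7 windows and in 20.8% of all 32851 windows. The full element TGACGTCA, which holds the core on each strand, was found in 2 of 7, Btg2 and Dusp1, and in 1.79% of all windows. The following stretches show where the elements stood in 5 of the genes, 5′ to 3′ on the strand of the gene, with each core in capitals.
Fos, chr12:85473746-85473843, plus strand, bases -144 to -47 from the start: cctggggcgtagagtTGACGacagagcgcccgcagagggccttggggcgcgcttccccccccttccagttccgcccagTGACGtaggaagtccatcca
Nr4a1, chr15:101266762-101266825, plus strand, bases -84 to -21: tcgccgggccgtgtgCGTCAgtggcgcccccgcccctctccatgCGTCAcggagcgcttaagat
Dusp1, chr17:26508593-26508678, minus strand, bases -206 to -121: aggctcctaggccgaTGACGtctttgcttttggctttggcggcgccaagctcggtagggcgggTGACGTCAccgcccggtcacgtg
Btg2, chr1:134079299-134079336, minus strand, bases -181 to -144: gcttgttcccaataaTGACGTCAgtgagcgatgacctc
Npas4, chr19:4990131-4990155, minus strand, bases -184 to -160: ttcgaCGTCAcgggaTGACGtcgga

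In Fos the cores began at bases -129 and -66 from the start, and in Npas4 a pair in opposite orientation began at -179 and -169. In GENCODE M21, whose Npas4 starts further upstream, that pair lies within an exon, and the Nr4a1 and Dusp1 stretches lie inside the gene, upstream of the RefSeq start. Nr4a1 carried 4 cores, of which the nearest pair to the start is shown. The CArG box, the site of the serum response factor, was found in 0 of 7 windows and in 1.63% of all windows, and the AP-1 site TGANTCA in 0 of 7 and in 7.81%. The window does not reach distal elements. The TATA box TATAAA was found in 2 of 7 windows and in 13.6% of all windows, beginning at base -33 in Fos and at base 1 in Junb.

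Between the 8 MFN2 and 4 WT libraries, the quasi-likelihood test of edgeR called 0 of the 10 genes at an FDR of 0.05. The background was the same, as 0 of 15942 genes passed (0%), with 2386 at an unadjusted p under 0.05. DESeq2 called 200 genes and the likelihood ratio test 14, with none of the 10 among either. All 10 estimates were above 0, from a log2 fold change of 0.01 in Arc to 1.74 ± 0.76 (SE) in Npas4 (adjusted p = 0.312), and Npas4 was the 1 gene under an unadjusted p of 0.05. Egr1 had 1.07 ± 0.58 and Nr4a1 0.89 ± 0.69. All 10 estimates were lower in the fit without library 43, where those of Npas4 and Egr1 stayed above 0 and that of Nr4a1 did not.

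Without library 43, 19 of 15835 genes passed (0.12%) and again 0 of the 10. This fit was added after the data were seen. Estimates of 6 of the 10 were then below 0. Nr4a1 moved to -0.08 ± 0.15, Junb to -0.07 ± 0.12, Fos to -0.06 ± 0.10, Btg2 to -0.11 ± 0.19 and Ier2 to -0.07 ± 0.17. Fosb (0.06 ± 0.39) and Dusp1 (0.03 ± 0.10) were near 0. Unadjusted p-values were under 0.05 for 3 of the 10 in edgeR's test, and for 3351 of all 15835 genes. Of the 3, Npas4 alone was under it with library 43. Log2 fold changes were 0.32 ± 0.11 for Egr1 (adjusted p = 0.134), 0.88 ± 0.37 for Npas4 (adjusted p = 0.201) and -0.23 ± 0.10 for Arc (adjusted p = 0.215). The median over the 10 was 0.34 with library 43 and -0.07 without it, against 0.0038 and -0.0022 over all genes. No gene of the 10 separated the genotypes without overlap, with or without library 43, while 2.04% and 2.85% of the tested genes did.

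**Figure D3:**
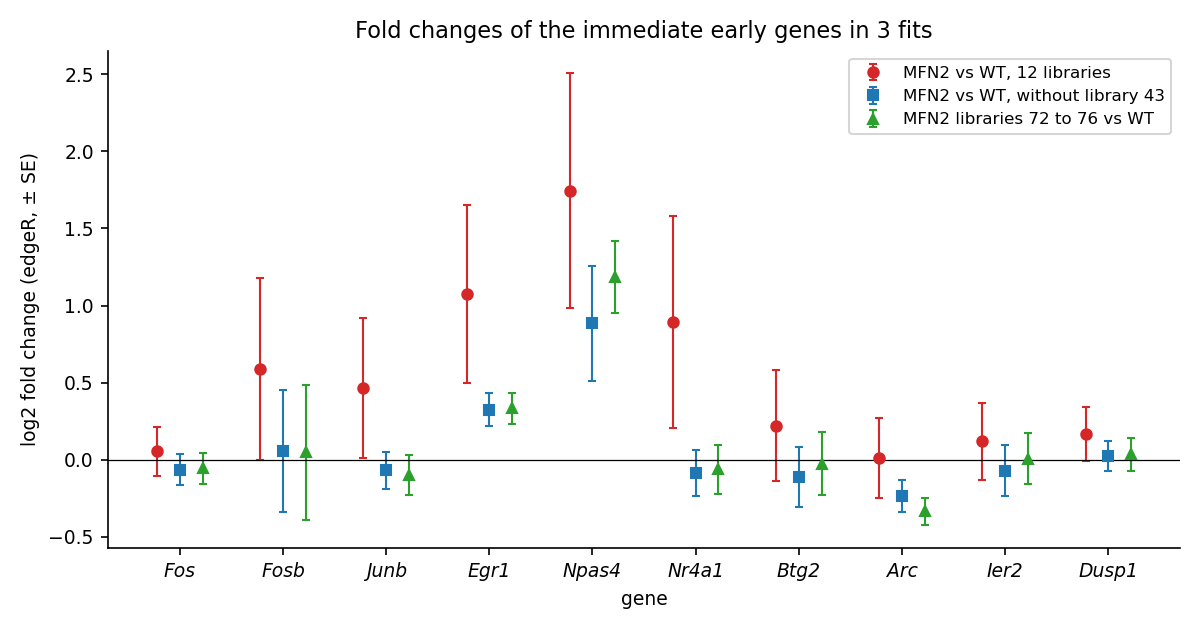
Log2 fold change with its standard error (bars) of each gene, for all 12 libraries (circles), without library 43 (squares) and for MFN2 libraries 72 to 76 against WT (triangles). Circles of Nr4a1, Npas4, Egr1, Junb and Fosb lie well above their squares, and the squares and triangles of most genes lie near 0 except for Egr1, Npas4 and Arc.

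Within the first run of numbers, MFN2 libraries 41 to 43 were set against the 4 WT libraries, which the comparisons share. The test passed 0 of the 10 genes and 1 of 15200 genes (0.00658%), and DESeq2 passed 5 genes and none of the 8 of the 10 to which it gave a p-value (not Nr4a1 and Npas4). In edgeR's test, 1 of the 10, Egr1, had an unadjusted p under 0.05, as had 1083 of the 15200 genes. Estimates ran from 0.24 in Fos to 2.39 in Npas4, with a median of 0.84 over the 10. With libraries 41 and 42 alone the median was -0.01 over the 9 genes that passed the filter. Npas4 did not pass it, at 0.801 and 0.764 CPM against 0.612 to 1.40 CPM in WT mice. In that run, then, the MFN2 levels of Npas4 and Arc lay within the WT range once library 43 was left out.

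MFN2 libraries 72 to 76 differed from WT in 3 of the 10 genes, against a background of 23.8% of 15743 genes called (11.1% rose and 12.7% fell). With scaling by library size alone the split of all calls turned, from 1746 higher and 2000 lower to 2822 higher and 1345 lower, while the 3 genes kept their calls. Npas4 and Egr1 rose and Arc fell. The other 7 genes had log2 fold changes between -0.10 and 0.05, and in all 7 the ranges of the groups overlapped.

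Npas4 lies on chromosome 19 from 4984355 to 4990316 on the minus strand (GRCm38). It was at 2.24, 2.31, 2.45, 2.25 and 2.04 CPM in libraries 72 to 76, and at 1.40, 0.612, 0.842 and 1.10 CPM in WT libraries 44 to 47. The groups did not overlap, as was the case with higher values for 9.43% of all tested genes. Its log2 fold change was 1.19 ± 0.24 (SE) with an adjusted p of 0.00426 in edgeR's test. Npas4 passed the filter of 1 CPM in 3 libraries only through libraries 72 to 76, where it is high, and without a filter its adjusted p was 0.000246. The 5 libraries lay above WT and MFN2 libraries 41 and 42 together, as they did for 7.08% of tested genes. Npas4 was the 1 gene of the 10 with either pattern.

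Egr1 was at 19.4, 19.9, 22.2, 16.6 and 18.0 CPM in libraries 72 to 76, and at 14.0, 17.6, 15.9 and 13.4 CPM in WT libraries 44 to 47. Library 75 lay below the highest WT library. MFN2 library 41, at 21.6 CPM, lay above the 4 WT libraries, and library 42, at 15.9 CPM, lay among them. The log2 fold change was 0.33 ± 0.10 with an adjusted p of 0.0323, and the call was lost when any of 6 of the 9 libraries was left out.

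Arc lies on chromosome 15 from 74669083 to 74672570 on the minus strand. It was at 29.0, 30.0, 26.4, 27.7 and 34.4 CPM in libraries 72 to 76 and at 31.4, 40.2, 37.3 and 39.6 CPM in WT libraries 44 to 47. The groups overlapped through library 76 and WT library 44. Its log2 fold change was -0.33 ± 0.09 with an adjusted p of 0.0179 in edgeR's test, lost without WT library 45 (adjusted p = 0.0639). In MFN2 libraries 41 and 42 Arc was at 37.2 and 36.2 CPM, within the WT range.

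**Figure D4:**
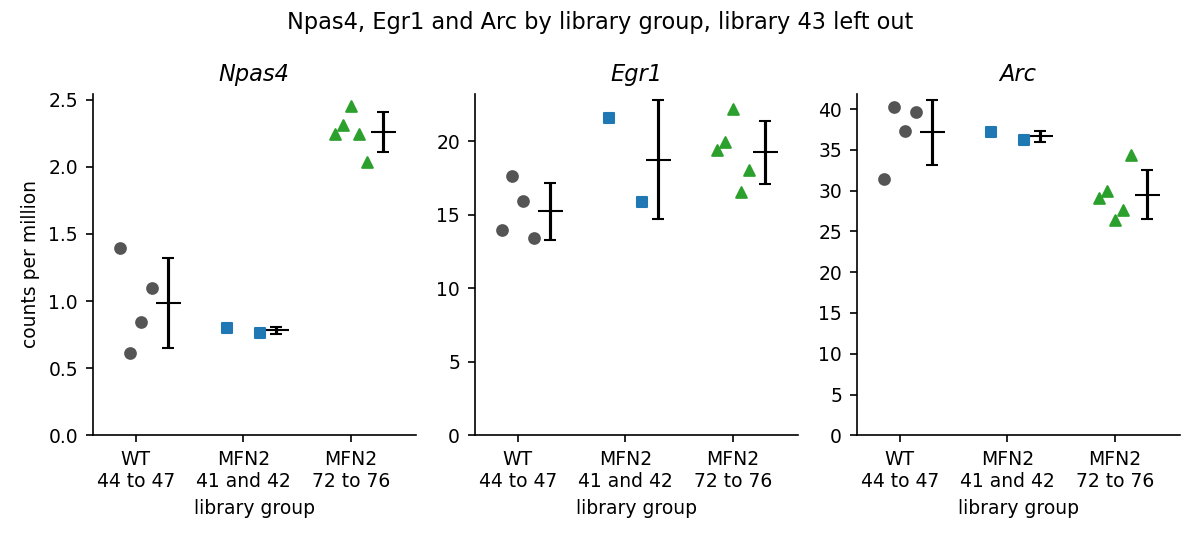
CPM of Npas4, Egr1 and Arc in WT libraries, MFN2 libraries 41 and 42 and MFN2 libraries 72 to 76, each point 1 library, with the mean and SD as the black bar beside the points. Npas4 lies between 2.04 and 2.45 CPM in libraries 72 to 76 and at or below 1.40 CPM in the other libraries shown.

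Fos, the most used marker of neuronal activity, showed no such pattern. The gene lies on chromosome 12 from 85473890 to 85477273 on the plus strand. It was at 9.58, 9.23, 11.4, 8.79 and 8.77 CPM in libraries 72 to 76 and at 10.9, 9.37, 10.3 and 9.13 CPM in WT libraries 44 to 47, and its log2 fold change was -0.06 ± 0.10. Junb, at 5.65 to 6.82 CPM against 5.53 to 8.16 CPM, and Nr4a1, at 3.31 to 5.52 CPM against 4.003 to 4.43 CPM, overlapped likewise. Btg2 reached 9.95 CPM in WT library 44 and was at 5.01 to 5.84 CPM in the other WT libraries, with 5.54 to 8.18 CPM in libraries 72 to 76. Ier2 lay at 3.11 to 5.02 CPM against 3.08 to 4.56 CPM and Dusp1 at 7.12 to 9.05 CPM against 6.77 to 8.62 CPM. Fosb spread most, from 0.306 to 2.66 CPM in libraries 72 to 76. Library 73 was the highest of the 5 for Fosb, Nr4a1, Btg2, Ier2 and Junb. It also stood apart in markers of other tissue, with Myh4, the most abundant of 4 skeletal muscle genes, at 78.4 CPM against 1.98 to 9.18 CPM in the other 4 libraries, and 5 blood genes summing to 333.1 CPM against 116.5 to 178.0 CPM. The 5 fibroblast genes summed to 389.7 CPM in library 73 against 152.8 to 306.2 CPM in the other 4. WT library 47 had Myh4 at 114.0 CPM, and the fibroblast genes summed to 464.2 CPM in WT library 44. Without library 73 the log2 fold changes of Npas4 (1.19) and Arc (-0.33) kept their calls and that of Egr1 (0.33, adjusted p = 0.056) did not, while Fosb moved to -0.33 and Ier2 to -0.0875. The part of the tissue markers in these levels was not tested.

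The same contrast was made inside the MFN2 genotype. Between libraries 72 to 76 and 41 to 43, 0 of the 10 genes and 342 of 15633 genes (2.19%) passed edgeR's test. An unadjusted p under 0.05 was found for 4 of the 10 (Junb, Egr1, Arc and Nr4a1) and for 3840 of the 15633 genes. The likelihood ratio test called 1 of the 10, Arc, as did DESeq2, which gave Nr4a1 and Npas4 no p-value. Without library 43, in a fit added after the data were seen, Npas4 was higher by a log2 fold change of 1.51 ± 0.24 (adjusted p = 0.00343) and Arc was lower, at -0.32 ± 0.09 (adjusted p = 0.0379), against 15.3% of 15509 genes called (7.34% higher and 7.98% lower). Egr1 had 0.03 ± 0.14. Here too Npas4 passed the filter only through libraries 72 to 76, and without a filter its adjusted p was 0.000277. The call of Arc was lost with library size alone (adjusted p = 0.0589) and when any of 6 of the 7 libraries was left out (adjusted p up to 0.181), while that of Npas4 held in each of these. With library 43 kept, the log2 fold change of Npas4 was -1.22 ± 0.86. The fit without library 43 and the comparison with WT share libraries 72 to 76, so they are not independent for Npas4. With 2 libraries in one arm, the fit without library 43 leans on the spread of the other.

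Ddx3y was present in WT library 44 and in none of libraries 72 to 76. Without WT library 44, the log2 fold change of Npas4 was 1.41 ± 0.24 (adjusted p = 0.00137) and Arc -0.41 ± 0.08 (adjusted p = 0.0034), while Egr1 lost its call at 0.29 ± 0.11 (adjusted p = 0.0601).

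Markers of other cells moved with the same contrast, in which 11.1% of all tested genes rose and 12.7% fell. All 5 microglial markers fell in libraries 72 to 76 against WT, with C1qa at -0.84 ± 0.16, and the list summed to 78.7 to 100.9 CPM against 104.6 to 140.1 CPM, Csf1r being its most abundant gene. Of the 5 astrocyte markers 3 fell, Gfap by 1.08 on the log2 scale. Of 5 endothelial markers Cldn5, a tight junction gene, fell by 0.82, and of 5 mural markers Acta2 and Myh11, both of smooth muscle, fell by 1.07 and 0.77. The sums of these lists were not lower, at 134.5 to 168.2 CPM against 122.9 to 146.5 CPM (endothelial) and 132.5 to 157.3 CPM against 114.9 to 149.4 CPM (mural). Their most abundant genes, Flt1 (mean 69.3 against 44.4 CPM in WT) and Rgs5 (111.0 against 95.4 CPM), had higher means. Gpr17, 1 of 3 markers of oligodendrocyte precursors, rose by 0.41, from 95.3 to 124.3 CPM in WT mice to 131.7 to 162.4 CPM, and Alas2, 1 of 5 blood genes, rose by 1.18. None of the 5 oligodendrocyte, 5 fibroblast or 4 skeletal muscle markers passed. Among 5 neuronal markers Syt1 rose by 0.47 and Snap25 fell by 0.18, and none of the 6 motor neuron markers or 8 caudal Hox genes passed. Among the 15 forebrain genes 12 were tested, and Nrgn rose by 0.57. The part of these shifts in the levels of Npas4, Egr1 and Arc was not tested. In bulk tissue, fewer cells of a type and less RNA per cell cannot be told apart.

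Other immediate early genes moved in both directions between libraries 72 to 76 and WT. Of the 49 on a list written by hand, 41 were tested, 4 rose and 8 fell (29.3%, against 23.8% of all genes), and their median log2 fold change was -0.0026 against -0.00066 over all genes. Sgk1, a kinase also induced by glucocorticoids, rose by 1.21 ± 0.27 and Per1, a clock gene, by 1.03 ± 0.12. Plk2 and Homer1, both tied to synaptic scaling, rose by 0.35 ± 0.10 and 0.31 ± 0.07. Per1 was at 41.2 to 59.6 CPM in libraries 72 to 76 and at 20.6 to 26.7 CPM in WT mice. The groups did not overlap, as with higher values for 9.43% of all tested genes.

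The falls were led by Ier5 (-0.98 ± 0.10), a relative of Ier2, and by Zfp36l2 (-0.73 ± 0.08), which binds AU-rich mRNAs. Ier5l (-0.53 ± 0.12), Zfp36l1 (-0.52 ± 0.13), the AP-1 subunits Jund (-0.44 ± 0.06), Jun (-0.38 ± 0.07) and Fosl2 (-0.37 ± 0.13), and Nfil3 (-0.32 ± 0.11) fell too, the last 3 being named after their values were seen. Jund was at 90.9 to 107.3 CPM in libraries 72 to 76 and at 122.4 to 143.4 CPM in WT mice. With scaling by library size alone, Fosl2 and Nfil3 lost their calls and Rgs2 and Plk3, likewise named after the fact, gained one. Junb, their relative among the 10 genes, had -0.10 ± 0.13.

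**Figure D5:**
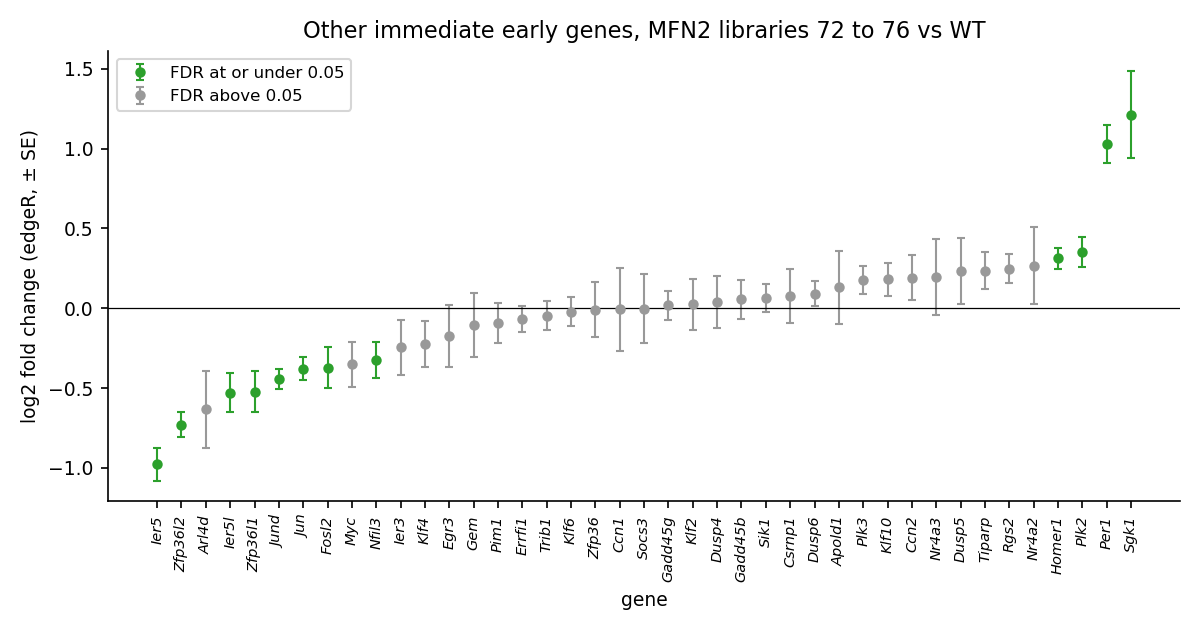
Log2 fold change with its standard error of the 41 other immediate early genes tested between MFN2 libraries 72 to 76 and WT, in order of size, with genes past an FDR of 0.05 in green and the rest in grey. Per1 and Sgk1 stand apart at the upper end and Ier5 at the lower.

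Among 29 kinases, phosphatases and transcription factors that act on these promoters, 7 rose and 4 fell (37.9%, against 23.8% of all genes). The rises were small, led by Camk4 (0.33 ± 0.08), the calcium-dependent kinase that phosphorylates CREB, Elk1 (0.32 ± 0.08) and Ppp3ca (0.25 ± 0.05), the catalytic subunit of calcineurin. Mrtfb and Map2k2 rose by less, as did Rps6ka3 and Crebbp, which were named after their values were seen. Srf, the serum response factor, fell by 0.43, Mapk3 (ERK1) by 0.39, and Prkaca and Elk4 by 0.24 each. Of 15 late-response genes of active neurons, 1 rose, Scg2, which encodes secretogranin II (0.47 ± 0.11), and none fell (6.67% called). In the fit of all 12 libraries none of these lists had a gene past the threshold. The lowest unadjusted p-values there were those of Per1 (log2 fold change 0.89 ± 0.22), Sgk1 (0.99 ± 0.30), Jun (-0.31 ± 0.09) and Scg2 (0.42 ± 0.11).

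Outside library 43 the correlations between the 10 genes were mixed in sign, and no like value over all tested genes was computed. Over the 11 libraries, the Pearson r of log2 CPM between pairs of the 10 had a median of 0.119 over 45 pairs, of which 29 were positive. The ends of the range were Fosb with Nr4a1 (0.726) and Arc with Npas4 (-0.878). These values are descriptions over libraries that share 2 runs of numbers, in which Npas4 and Arc differed. With library 43 the median r was 0.783 and all 45 pairs were positive. The coefficient of variation over the 11 libraries was lowest in Dusp1 (8.42%) and Fos (10.4%) and highest in Fosb (44.8%) and Npas4 (48.0%). Tested genes of like abundance had medians of 14.4%, 12.9%, 32.2% and 30.5%, in the same order. Among such genes Fosb was at percentile 81.5 and Npas4 at 86.6, with Egr1 at 80.9, Arc at 81.6 and Btg2 at 82.5. With library 43 the coefficient ran from 20.2% in Fos to 142% in Npas4.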

How the data were processed

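RNA of the lumbar spinal cord was sequenced from 8 MFN2 and 4 WT mice. According to the methods and labels, the authors made poly(A) libraries, mapped the read pairs with STAR on GRCm38 and deposited raw counts per Ensembl gene. Neither the program that counted nor its use of strand is given in the sources used here. Genotypes came from the labels. A gene entered a comparison if it exceeded 1 CPM in 3 or more of its libraries. Differences were tested after TMM scaling in edgeR 4.0.16 (R 4.3.3), with the legacy form of the robust quasi-likelihood test, and p-values were adjusted by Benjamini-Hochberg (FDR of 0.05). Standard errors came from the F statistic. CPM and RPKM use TMM-scaled library sizes and GENCODE M21 exon lengths, and correlations used log2 CPM with a prior count of 2. On simulated counts with 200 changed genes in the comparison of MFN2 with WT, 198 passed the filter and 198 were recovered, with 9 false calls. In the simulation all genes had the same preset variability beyond counting noise, changes were large and no library stood apart. It therefore does not gauge how many changes the test would find in the real libraries. No pair of libraries of a genotype had matching counts. Alternatives were DESeq2 1.42.0, other filters and scalings, the likelihood ratio test, covariates for a forebrain score or for the number run, and fits that left out 1 library each. Promoters were taken from RefSeq. The methods describe WT littermates but the labels tie no mouse to a litter, so p-values measure the spread between these animals.

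The 10 genes, the gene lists, tests and alternatives were chosen with earlier results of these data known. Besides the 10 genes, the text names from each list the genes past the threshold, up to 5 in each direction by size, or up to 4 with the lowest unadjusted p where none passed, and the 5 genes whose pattern was most like that of the 10. Others are named as chosen after their values were seen, or as the most abundant of a marker list, or are markers of tissue, sex or cell type.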

Additional observations from a re-analysis of the deposited data

Results flagged for a closer look

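In 13 of 30 groups tested (each of the 10 genes in the MFN2, WT and 72 to 76 libraries), 1 library lay further from the next than Dixon's 95% critical value allows, where chance gives about 1.5. The groups share libraries and the 10 genes are not replicates, so the 30 are not independent and this count is only a description. The share of all tested genes past the same value was not computed. Library 43 was the outlying library in 10 of them, 1 for each gene among the 8 MFN2 libraries. Its gap to the next library, as a share of the range, was 0.948 for Junb, 0.941 for Egr1, 0.93 for Nr4a1, 0.871 for Npas4, 0.793 for Arc, 0.757 for Btg2, 0.726 for Dusp1, 0.6 for Fosb, 0.582 for Fos and 0.566 for Ier2. Among libraries 72 to 76, library 73 was high in Nr4a1 (5.52 CPM, 0.729 of the range) and library 72 in Dusp1 (9.05 CPM, 0.713 of the range). The summed levels of skeletal muscle, blood and fibroblast genes in library 73 were the highest of the 5 too. WT library 44 was high in Btg2 (9.95 CPM, 0.831 of the range).

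The difference between MFN2 libraries 72 to 76 and MFN2 libraries 41 and 42 passed edgeR's test for Npas4 (log2 fold change 1.51, adjusted p = 0.00343) and Arc (-0.324, adjusted p = 0.0379), the latter lost with library size alone (adjusted p = 0.0589) and with 6 of the 7 libraries left out in turn (up to 0.181). As WT libraries are found in the first run of numbers alone, the same difference cannot be tested in WT mice.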

How the results depend on the processing

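No paired analysis was possible because the labels tie no MFN2 mouse to a WT mouse. Over the 12 libraries, the count of called genes moved from 0 to 200 with DESeq2, 14 with the likelihood ratio test and 15 with the forebrain score as a covariate, and ran from 0 to 19 with 1 library left out. With a covariate for the number run 0 genes passed, and 0 of the 10 genes passed under any of these. Signs turned with the forebrain score for Fos (-0.0918), Junb (-0.16), Arc (-0.29), Nr4a1 (-0.20), Ier2 (-0.10), Dusp1 (-0.0038) and Btg2 (-0.16), and with DESeq2 for Junb (-0.0647) and Nr4a1 (-0.0798). With 1 library left out, estimates ran from -0.0625 to 0.10 (Fos), -0.0685 to 0.59 (Junb), -0.23 to 0.0741 (Arc), -0.0848 to 1.01 (Nr4a1), -0.0693 to 0.21 (Ier2) and -0.11 to 0.50 (Btg2). Each sign turned without library 43, and that of Arc also without WT library 44.

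For MFN2 libraries 41 to 43 against WT, the count of called genes was 0 without a filter and 5 with DESeq2, and 0 to 2 with 1 library left out. Without library 43 the signs of 5 genes turned, so that estimates ran from -0.0762 to 0.43 (Fos), -0.0088 to 0.66 (Arc), -0.14 to 2.24 (Nr4a1), -0.27 to 0.58 (Ier2) and -0.35 to 0.89 (Btg2).

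For libraries 72 to 76 against WT, leaving out 1 library gave 2350 (without WT library 45) to 4517 called genes and 2 to 3 of the 10. The call of Npas4 held in every setting (adjusted p at most 0.0173). Values near 0 changed sign with library size alone in Fos (0.0149), Nr4a1 (0.0104) and Btg2 (0.0416) and without a filter in Ier2 (-0.0033). With 1 library left out they ran from -0.33 to 0.30 (Fosb), -0.17 to 0.0195 (Junb), -0.19 to 0.0069 (Nr4a1), -0.0875 to 0.0896 (Ier2), -0.0212 to 0.10 (Dusp1) and -0.13 to 0.26 (Btg2).

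Between the MFN2 runs, 1795 genes passed with DESeq2 and 1000 with the likelihood ratio test, each with 1 of the 10, Arc (-0.79 and -0.81), though DESeq2 gave Nr4a1 and Npas4 no p-value there or between libraries 41 to 43 and WT. Leaving out 1 library gave 31 to 2375 genes and 0 to 2 of the 10, and estimates from -1.96 to 0.0285 (Egr1) and -1.74 to 1.51 (Npas4), whose signs turned without library 43.

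Among the fits added after the data were seen, the comparison of the genotypes without library 43 gave 152 genes without a filter, 64 with library size alone, 756 with DESeq2 and 515 with the likelihood ratio test, and 0 to 1569 genes with a further library left out, the most without library 41. Its estimates then ran from -0.18 to 0.27 (Fosb), -0.14 to 0.0505 (Junb), -0.16 to 0.0138 (Ier2), -0.0255 to 0.0917 (Dusp1) and -0.22 to 0.17 (Btg2). Between libraries 72 to 76 and 41 and 42, library size alone left 1 of the 10 (Arc at -0.27, adjusted p = 0.0589), leaving out 1 library gave 691 to 2611 genes and 1 to 2 of the 10, and Egr1 ran from -0.16 to 0.27. Npas4 kept its call with library size alone (adjusted p = 0.00324).

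By CPM in place of RPKM, 2 of the 10 genes kept their place in the order of levels. The core TGACG was in 7 windows and the full element in 2. The causes of these changes were not tested. These depths leave genes near 1 CPM with few reads.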

Other observations

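Between MFN2 libraries 72 to 76 and WT, of 13 heat-shock genes 1 rose (Hsp90aa1, 0.18 ± 0.06 on the log2 scale) and 4 fell in edgeR's test (38.5%, against 23.8% of all genes). Hspa1b, an inducible HSP70 gene, fell by 2.17 ± 0.27, from 3.10 to 8.25 CPM in WT mice to 0.890 to 1.48 CPM, and MFN2 libraries 41 and 42 were at 4.92 and 2.44 CPM. Its near-identical copy Hspa1a may share reads with it, so the level of each is uncertain. Hspb1 (-0.51), Hspe1 (-0.39) and Hspa5 (-0.35) fell as well. Among 14 glucocorticoid and hypoxia targets (28.6% called, against the same 23.8%) Sgk1, Per1 and Zbtb16 rose, Zbtb16 by 0.68 ± 0.11, and Mt1 fell by 0.45. Sgk1 was at 31.1, 52.5, 69.2, 27.8 and 38.8 CPM in libraries 72 to 76 against 18.1 to 19.3 CPM in WT libraries.

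Over the 11 libraries without library 43, the genes whose log2 CPM followed the mean z score of the 10 most closely were Usp1 (r = 0.866), Mpdu1 (0.856), Siah1a (0.856), Tsku (0.852) and Ctsc (0.847). They were picked as the highest of all tested genes over few libraries, so a high r follows in part from that choice. With library 43 the leading genes were Pitpnm2, Ext1, Dgkz, Myl4 and Plxnd1, none of which was among the first 5. Dgkz was at 367 CPM in library 43 against a mean of 85.7 CPM in the other 11. All 5 were higher in library 43 than their mean in the other libraries, so that library weighs heavily in this order.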
